A study of Mus musculus with 12 samples.

Results

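The RNA of mouse fibroblasts that carry no functional MyoD or Myf5 gene and no added muscle factor was described from the 3 hrGFP arrays, titled 3, 4 and 5, among 12 arrays of the series. The cells belong to 2C5/7, a line derived from embryonic fibroblasts and null for both genes (myoD-/-;myf5-/-). They had been infected with a retrovirus that codes for the green fluorescent protein hrGFP alone. The other groups, with 3 arrays each, received MyoD, Myf5 or myogenin from the viral long terminal repeat, with hrGFP from an internal ribosome entry site of the same transcript, so every group carries hrGFP and lacks both endogenous genes. The labels name hrGFP and myogenin as the controls. Cells were sorted by fluorescence without cloning, to an estimated purity of 75 to 85%, and grew attached to plastic in DMEM with 10% fetal calf serum. All groups are thus 1 line, part of each sorted population may lack the virus, and whether replicates came from separate cultures is not stated. The arrays were chosen by their titles, not by any measured value.

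MyoD, Myf5, myogenin and Myf6 (MRF4) are basic helix-loop-helix transcription factors that bind E-box DNA together with E proteins such as those of Tcf3, Tcf4 and Tcf12. MyoD and Myf5 commit cells to the skeletal muscle lineage, and myogenin drives their differentiation into fibres with sarcomeres. Fibroblasts are the matrix-making cells of connective tissue, known for collagens, proteoglycans and a contractile actin cytoskeleton, and forced MyoD is the classical means of turning them into muscle. The hrGFP cells are the state from which such a change starts.

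Each signal is a MAS5 intensity of 1 probe set on 1 array, and 12422 probe sets were used after 66 array controls were set aside. A percentile here is the share of an array's probe sets with the same or a lower signal. A probe set was called high where it lay in the top 10% of both hrGFP 3 and hrGFP 4, near background where it lay in the lowest 40% of both, and middle or split otherwise. For each gene the probe set whose mean was highest across the 12 arrays was taken, and was called near background only where every probe set of it was. Because probes differ in strength, percentiles order signals and not RNA amounts. A higher rank of 1 gene than of another need not mean more RNA, and high and low below describe signals.

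The hrGFP 5 array is shown apart. The Actb control probe sets for the 3' end, the middle and the 5' end of the transcript gave 8711, 9048 and 8064 on hrGFP 3 and 5849, 5841 and 5603 on hrGFP 4. On hrGFP 5 they gave 3769, 801 and 100, a ratio of 3' to 5' signal of 37.6, and MyoD 5 was alike at 25.7. The other 10 arrays lay between 0.968 and 1.11. The Gapdh ratio was 33.0 on hrGFP 5 and 32.4 on MyoD 5, against 0.786 to 1.03 on the other 10 arrays. The signal of hrGFP 5 therefore came mostly from the 3' ends of these transcripts. Its ranks over the 12422 probe sets correlated best with those of MyoD 5 (Spearman 0.943), against 0.874 with hrGFP 3 and 0.851 with hrGFP 4, while hrGFP 3 and hrGFP 4 correlated at 0.928. The information files of hrGFP 5 and Myf5 5 carry the same sample code, and their ranks correlated at 0.879. The hrGFP 4 array had the lowest median signal of the 12, 16.2 in a range of 16.2 to 35.9, with 29.3 on hrGFP 3 and 26.8 on hrGFP 5. Its 18S ribosomal RNA control for the 3' end gave 1649, against 285 on hrGFP 3 and 51.9 on hrGFP 5. In the other groups this control ran from 62.7 on MyoD 5 to 3192 on myogenin 3.

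**Figure D1:**
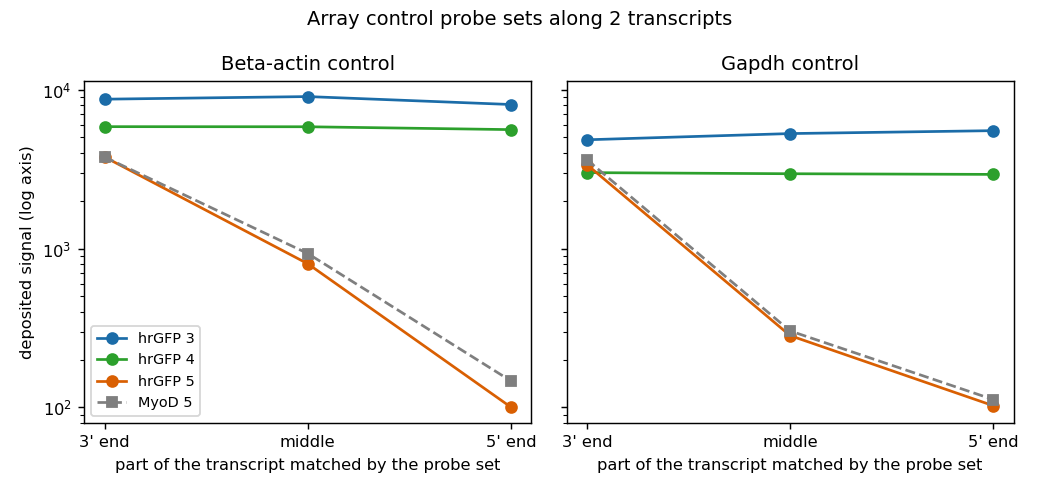
Control probe sets for the 3' end, middle and 5' end of Actb and Gapdh, as deposited signal on a log axis, for the 3 hrGFP arrays and MyoD 5. The lines of hrGFP 5 and MyoD 5 slope down towards the 5' end, to 100 and 146 for Actb, and those of hrGFP 3 and hrGFP 4 stay nearly level.

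A small part of the probe sets carried most of the signal. The top 10% held 65.2% of the summed signal on hrGFP 3, 65.3% on hrGFP 4 and 70.5% on hrGFP 5, and the lowest 40% held 2.13%, 2.55% and 1.57%. Across hrGFP 3 and hrGFP 4, 1046 probe sets (8.42%) were high in both, 4262 (34.3%) near background in both and 5308 in the middle of both. A probe set moved by a median of 5.26 percentile points between these arrays, and by 7.20 and 8.51 points between hrGFP 5 and hrGFP 3 or hrGFP 4. Of the 1046 high probe sets, 776 were also in the top 10% of hrGFP 5, 258 were in its middle and 12 in its lowest 40%. Of the 4262 near background, 3759 stayed in the lowest 40% of hrGFP 5 and 0 reached its top 10%. As a gauge of background, 19 controls for bacterial and yeast transcripts reached a 90th percentile of 12.2 on hrGFP 3, 9.47 on hrGFP 4 and 12.7 on hrGFP 5. On the same arrays 33.5%, 38.3% and 36.1% of the mouse probe sets lay at or under that signal. Of 8251 genes with a probe set of their own symbol, 828 were high (10.0%) and 2200 near background (26.7%), and these shares are the yardstick for each gene group. In hrGFP 5 taken alone, 1002 genes (12.1%) were in the top 10% of probe sets and 2649 (32.1%) near background.

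Ribosomal proteins made up much of the brightest group. Among the 25 genes of highest mean percentile in hrGFP 3 and hrGFP 4 were Rpl41, Rplp0, Rps28, Rps18, Rps24, Rpl19, Rps10, Rps3a1, Rpl8, Rps4x and Rpl7, all coding for proteins of the cytosolic ribosome. Rpl41 had the top signal on every hrGFP array, 9135 on hrGFP 3, 6678 on hrGFP 4 and 9758 on hrGFP 5. Eef1a1, which brings aminoacyl-tRNA to the ribosome, followed at 7449, 5259 and 9695. Tpt1, the translationally controlled tumour protein, and Ybx1, an RNA-binding protein, were in the same group. Tubulins (Tuba1c, Tuba1a) and cytoplasmic actin (Actg1) stood for the cytoskeleton. Tuba1c gave 6135, 3491 and 1560, and Tuba1a 4457, 1834 and 1785, and the other Tuba1a probe set gave 2378, 1504 and 4623, highest on hrGFP 5. Actg1 gave 4802, 2480 and 3778. Bgn codes for biglycan, a small proteoglycan of the matrix, and gave 4419, 2807 and 1709. Lgals1 codes for the lectin galectin-1 and gave 6728, 4250.5 and 8113. The calcium-binding S100a6 gave 5956, 4302 and 9003, and Anxa2, an annexin of the membrane cytoskeleton, 3799, 2292 and 3074. Gnas (a G protein subunit), Ran (nuclear transport), Pkm (pyruvate kinase of glycolysis) and Ccl2, a chemokine that attracts monocytes, complete the 25. Ccl2 had signals of 3494, 2408 and 5573, at or above percentile 99.6 on every array.

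Ribosomal, cytoskeletal and chaperone lists had the highest medians of the 31 lists in hrGFP 3 and hrGFP 4. Of 32 measured ribosomal protein genes 20 were high and 6 near background, with a median percentile of 99.1 in hrGFP 3 and hrGFP 4 and of 98.7 in hrGFP 5. The 6 included Rpl32, at percentiles 10.2, 21.4 and 27.2, and Rpl39, at 26.3, 11.5 and 28.5. Each is a part of every ribosome and each had only 1 probe set here, so a low percentile on this array need not mean that the RNA was scarce. Of 19 cytoskeleton genes 14 were high. Tubb5 lay at 99.6, 99.5 and 99.1, Tmsb10, an actin-binding thymosin, at 99.5, 99.5 and 99.6, and Cfl1, the actin-severing cofilin, at 99.5, 99.5 and 90.4. Flna, the actin cross-linker filamin A, and Zyx, a protein of focal adhesions, were near background at 14.5, 15.4 and 16.9 and at 20.4, 15.4 and 31.9.

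Fibroblast matrix genes were high. Of 16 measured genes for fibrillar collagens and their processing, 7 were high and 0 near background, with a median percentile of 90.7 against 57.3 over all genes. Col1a1 and Col1a2 code for the chains of type I collagen, the main fibre of skin, tendon and bone. Col1a1 had signals of 1734, 591 and 1195, and Col1a2 of 1067, 708 and 1899, and both were in the top 10% of all 3 arrays. Col5a2 lay at 98.6, 96.8 and 98.8 and Col6a1 at 94.0, 96.8 and 92.6. Pcolce, an enhancer of procollagen cleavage, had 851, 800 and 242. Serpinh1, the collagen chaperone Hsp47, had 785, 254 and 106.6, so both processing genes had their lowest signal on hrGFP 5. Bmp1, which cleaves procollagen, and Loxl1, a lysyl oxidase that cross-links elastin, were in the middle at 76.7, 79.9 and 60.05 and at 68.4, 70.6 and 58.6. The lowest of the list was Col3a1, which codes for type III collagen. Its best probe set gave 23.4 and 26.3 on hrGFP 3 and hrGFP 4 and 322 on hrGFP 5, which is percentile 90.5 there. Its other probe sets gave 0.381, 2.02 and 29.6, and 9.06, 6.20 and 71.5, so all 3 were highest on hrGFP 5.

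Of 27 other matrix and surface genes of fibroblasts, 17 were high and 2 near background, with a median of 95.9. S100a4, named fibroblast-specific protein, had signals of 2983, 2104 and 5961. Fbln2, the matrix protein fibulin-2, had 2771, 1719 and 2511, and Mmp3, the protease stromelysin-1, had 1273, 1015 and 1999. Beyond the rule for names, and chosen after their values were seen, Thy1 (a surface marker of fibroblasts) had 1365, 766 and 1794, Dcn (decorin) 1041, 987 and 2435, and Fn1 (fibronectin) 537, 341 and 689. Pdgfra, the receptor that marks mesenchymal cells, had 257, 220 and 737. All of these were in the top 10% of all 3 hrGFP arrays. Some genes of the list were not. Fap, the fibroblast activation protein, lay at 18.2, 22.6 and 37.6, and Lum, the proteoglycan lumican, at 26.7, 31.4 and 43.0. Vim, the intermediate filament vimentin that is abundant in fibroblasts, had a single probe set at 36.9, 50.6 and 43.4, within the range of signals of genes known from other lineages. Mmp2, a gelatinase, lay at 41.8, 42.9 and 41.6. Set against the label of a fibroblast line, the 2 lists thus had 24 of 43 genes high and 2 near background, and the 5 lowest-ranked members were Fap, Lum, Mmp2, Vim and Col3a1.

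**Figure D2:**
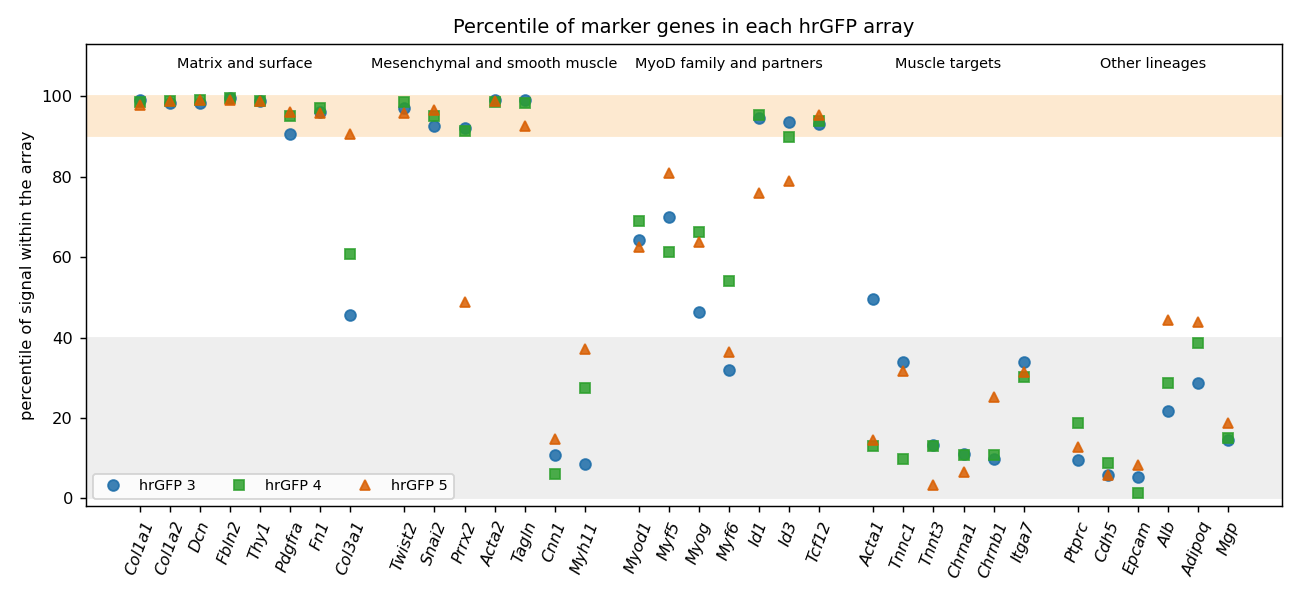
Percentile of the signal within each array for marker genes, with hrGFP 3, hrGFP 4 and hrGFP 5 as separate symbols, the top 10% and the lowest 40% shaded. Matrix genes other than Col3a1 lie in the upper band, Myod1, Myf5 and Myog in the middle, and most muscle targets and other lineages in the lower band. Myf6 is split between the middle and the lower band.

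Genes of contractile fibroblasts and smooth muscle were divided. Of 15 measured, 7 were high and 2 near background, with a median of 91.2 in hrGFP 3 and hrGFP 4 and of 82.0 in hrGFP 5. Acta2, the smooth muscle actin that marks myofibroblasts, had signals of 1987, 588 and 1984. Tagln, the actin-binding transgelin, had 1840, 535 and 415, and Tagln2 1805, 966 and 218. Tpm1 and Tpm4, tropomyosins that lie along actin filaments, had 1418, 435 and 1680, and 2686, 1325 and 3450. Csrp1, a LIM protein, had 721, 227 and 99.8. Cnn1 and Myh11, calponin and myosin heavy chain of differentiated smooth muscle, were near background, at percentiles 10.7, 6.1 and 14.7, and 8.5, 27.5 and 37.1. Smtn, smoothelin, was split at 61.6, 34.4 and 23.8. Cnn1 and Myh11 had 1 probe set each. With all 3 hrGFP arrays required in the top 10%, 4 genes of the list were high in place of 7.

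Some promoters of these genes held a motif that a known regulator binds. The CArG box is the site of serum response factor, which drives actin and smooth muscle genes. It was searched on both strands from 250 bases before to 50 bases after the start in RefSeq promoters (GRCm38.p6), and was found in 1.57% of all 27025 genes with a promoter. Of the 8251 array genes 6576 had a promoter, and 2 of 11 with one in the smooth muscle list and 2 of 18 in the cytoskeleton list held the box. Among array genes with a promoter 1.64% held it. The share was 2.20% of the 681 high in hrGFP 3 and hrGFP 4 and 1.84% of the 1687 near background. Stretches with the motif in capitals are shown for Actg1, high on all hrGFP arrays, and Cnn2, a calponin of non-muscle cells with signals of 634, 200 and 189. Both were chosen after their values were seen. They lie at chr11:120348496-120348615 on the minus strand and chr10:79988480-79988599 on the plus strand.
Actg1: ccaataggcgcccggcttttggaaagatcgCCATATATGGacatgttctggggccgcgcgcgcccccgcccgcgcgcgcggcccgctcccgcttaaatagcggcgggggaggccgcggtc
Cnn2: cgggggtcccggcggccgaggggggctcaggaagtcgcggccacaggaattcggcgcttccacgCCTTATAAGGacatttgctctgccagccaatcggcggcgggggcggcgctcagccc
The box begins 90 bases before the start in Actg1 and 56 bases before it in Cnn2. A match is a string of letters and shows no binding.

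The MyoD family itself gave mid-range signals. Myod1 had 58.6, 38.4 and 50.05, Myf5 had 77.2, 27.1 and 143, and Myog, which codes for myogenin, had 24.2, 33.9 and 53.1 on hrGFP 3, hrGFP 4 and hrGFP 5. Myf6 had 11.0, 19.6 and 12.8 and was split between the middle and the lowest 40%. The Myod1 probe set gave 41.3 to 54.1 in MyoD cells and 42.8 to 66.8 in Myf5 cells, and the Myf5 probe set 42.3 to 95.4 in MyoD cells and 27.4 to 125 in Myf5 cells, so the hrGFP values overlap both. The sources used here do not say which part of each gene the probes and the viral insert share, or which part the null alleles lack. These probe sets hence check neither the loss of the endogenous genes nor the added factor. Against the mean of the MyoD and Myf5 groups, limma gave a difference of 0.0048 ± 0.23 for Myod1 and 0.19 ± 0.32 for Myf5 (log2, SE, adjusted p = 1 for both).

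Other regulators of the muscle lineage were mostly in the middle. Of 17 measured, 1 was high and 2 were near background, with a median of 63.3 against 57.3 over all genes. Ncam1, an adhesion molecule of muscle and nerve, was the high one at 90.5, 91.7 and 92.5. Pax3, the factor of early muscle precursors, lay at 66.6, 78.5 and 79.9, Six4 at 70.4, 79.8 and 71.1 and its coactivator Eya1 at 73.6, 83.0 and 71.9. Mef2d, a MADS-box partner of MyoD, lay at 86.1, 83.7 and 86.6. Mef2c, another member of that family, was near background at 13.9, 9.2 and 27.4, as was Cdh15, the M-cadherin of muscle cells, at 10.3, 38.3 and 31.3.

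Among proteins that pair with the MyoD family or hold it back, 4 of 20 measured were high and 2 near background, with a median of 72.3 against 57.3 over all genes. Twist2, a repressor of MyoD in mesenchyme, had 673, 573 and 683. Snai2, a zinc-finger repressor that competes for E-boxes, had 319, 215 and 817. Id1, which sequesters E proteins, had 412, 230 and 106, and was in the top 10% of hrGFP 3 and hrGFP 4 but at percentile 76.0 of hrGFP 5. Id3 lay at 93.6, 89.9 and 79.0 and Id2 at 81.7, 87.9 and 92.1. Tcf12, the E protein HEB, had 333, 180 and 623, in the top 10% of every hrGFP array. Mstn, the growth inhibitor myostatin, and Notch1 were near background, at 32.4, 36.2 and 23.2 and at 28.4, 39.4 and 45.2.

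Sarcomere genes were low. Of 29 measured, 1 was high and 13 were near background, against 10.0% and 26.7% of all genes, and the median percentile was 31.3 in hrGFP 3 and hrGFP 4 and 34.5 in hrGFP 5. The high one was Actc1, the actin of heart and fetal muscle, with 608, 199 and 241 on a probe set whose suffix marks probes shared with other sequences. Its other probe set gave 7.08, 0.490 and 0.490, and whether the first one reports other actins was not tested. Myl2 and Myl3, myosin light chains of heart and slow muscle, lay at 9.0, 4.9 and 14.9, and at 0.8, 3.4 and 20.2. Myh6, a cardiac myosin heavy chain, lay at 6.1, 11.7 and 11.7, and Myh1, a fast one, at 18.3, 3.6 and 1.7. Myh4, Myh7 and Tnni1 were in the middle of hrGFP 3 and hrGFP 4, between 56.4 and 70.8, and the other Myh4 probe set was at 2.7, 2.9 and 8.7.

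The receptor and junction genes of muscle fibres were also low, with 0 of 11 high and 5 near background and a median of 28.6. Chrna1 and Chrnb1, subunits of the muscle acetylcholine receptor, lay at 11.0, 10.8 and 6.6, and at 9.9, 10.9 and 25.1. Musk, the receptor kinase that organizes the junction, lay at 8.9, 13.3 and 16.04. Dag1, the dystroglycan made by many cell types, was the highest at 82.9, 86.7 and 88.3. Chrne, the adult receptor subunit, differed between arrays and probe sets, with 27.9, 90.7 and 18.1 on its best one and 2.02, 2.37 and 3.68 on its lowest.

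The E-box CAGCTG, which reads the same on both strands, was found in 16.1% of all promoters of this length. It was found in 10 of 26 with a promoter in the sarcomere list (38.5%) and 4 of 8 in the receptor list. Of the 681 genes with a promoter that were high in hrGFP cells 11.3% held it, and of the 1687 near background 17.0%. The CArG box was in 4 of 26 sarcomere promoters. Stretches with both motifs in capitals are shown for genes with a probe set called lower in hrGFP cells or near background there, and whose promoters are known targets of muscle factors, namely Acta1 at chr8:123894776-123895025 (minus strand), Chrna1 at chr2:73580339-73580458 (minus) and Mylpf at chr7:127211488-127211607 (plus), again chosen after their values were seen.
Acta1: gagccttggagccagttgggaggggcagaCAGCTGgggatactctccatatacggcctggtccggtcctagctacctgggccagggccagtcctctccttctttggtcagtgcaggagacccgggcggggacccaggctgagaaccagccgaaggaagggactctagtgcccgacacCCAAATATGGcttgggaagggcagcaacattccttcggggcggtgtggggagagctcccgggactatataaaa
Chrna1: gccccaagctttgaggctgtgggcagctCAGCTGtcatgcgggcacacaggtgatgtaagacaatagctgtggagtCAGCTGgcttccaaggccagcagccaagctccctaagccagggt
Mylpf: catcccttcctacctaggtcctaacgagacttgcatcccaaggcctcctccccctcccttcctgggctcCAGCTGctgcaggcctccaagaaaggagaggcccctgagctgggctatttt
In Chrna1 the motif begins 92 and 44 bases before the start, in Mylpf 51 and in Acta1 221, where the CArG box begins at 73. The motif is common, so its presence says nothing of the state of a gene.

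Most lists of other lineages had more genes near background than all genes did. Of the 11 lists for adipocyte, cartilage and bone, macrophage, lymphocyte, mast cell, erythroid, endothelial, epithelial, neural, liver and germ cells, 10 had 0 high genes, and the list medians in hrGFP 3 and hrGFP 4 ran from 25.2 for liver to 40.4 for erythroid, against 57.3 over all genes. Near background were 5 of 8 adipocyte, 6 of 9 cartilage and bone, 9 of 15 macrophage, 5 of 10 lymphocyte and 6 of 11 mast cell genes, against 26.7% of all genes. The same held for 6 of 10 endothelial, 10 of 14 epithelial, 8 of 13 neural, 6 of 9 liver and 5 of 12 germ cell genes, and for 1 of 5 erythroid genes, below that share. Among defining markers, Ptprc, the pan-leukocyte CD45, gave 2.54, 3.23 and 2.98 and Lyz2, the lysozyme of macrophages, 1.46, 1.11 and 1.44. Cdh5, the cadherin of endothelium, gave 1.69, 1.58 and 1.62, and Epcam, of epithelium, 1.59, 0.445 and 2.09. These lie under the 90th percentile of the bacterial and yeast controls on each array. Retn and Slc2a4 of fat cells, Mgp and Acan of cartilage, Map2 and Snap25 of neurons, and Fgb of liver were also near background. The single high gene was Tubb3, a tubulin used as a neuronal marker, with 877, 346 and 437, again on a probe set of shared probes, and its second probe set gave 27.1, 13.9 and 15.99. Genes in the middle included Cd14, a receptor for bacterial lipopolysaccharide, at 80.9, 86.6 and 82.8, Lep, leptin, at 81.2, 71.6 and 74.6, Lpl, lipoprotein lipase, at 73.4, 61.2 and 80.7, and Cdh1, the epithelial cadherin, at 60.04, 72.1 and 63.8. Csf1r and Laptm5 of the macrophage list lay at 62.0, 71.5 and 57.9 and at 62.9, 71.5 and 63.8 on their higher probe sets. The suffixes of these mark shared or incomplete probes, and the other probe sets lay at 44.1, 43.2 and 44.9 and at 37.6, 43.3 and 31.6. Tpsb2 of mast cells lay at 60.2, 77.6 and 64.3 on its higher one. Cebpa of fat cells lay at 67.8, 67.7 and 32.6. Of the germ cell list, Fgf4 lay at 67.2, 69.7 and 73.8, and Tnp1 was split at 82.1, 91.2 and 76.7 on its higher probe set. That Tnp1 probe set also has such a suffix, and the other Tnp1 probe set lay at 14.7, 9.0 and 7.1. Mcpt8, a protease of basophils, was split at 43.3, 37.7 and 45.4.

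**Figure D3:**
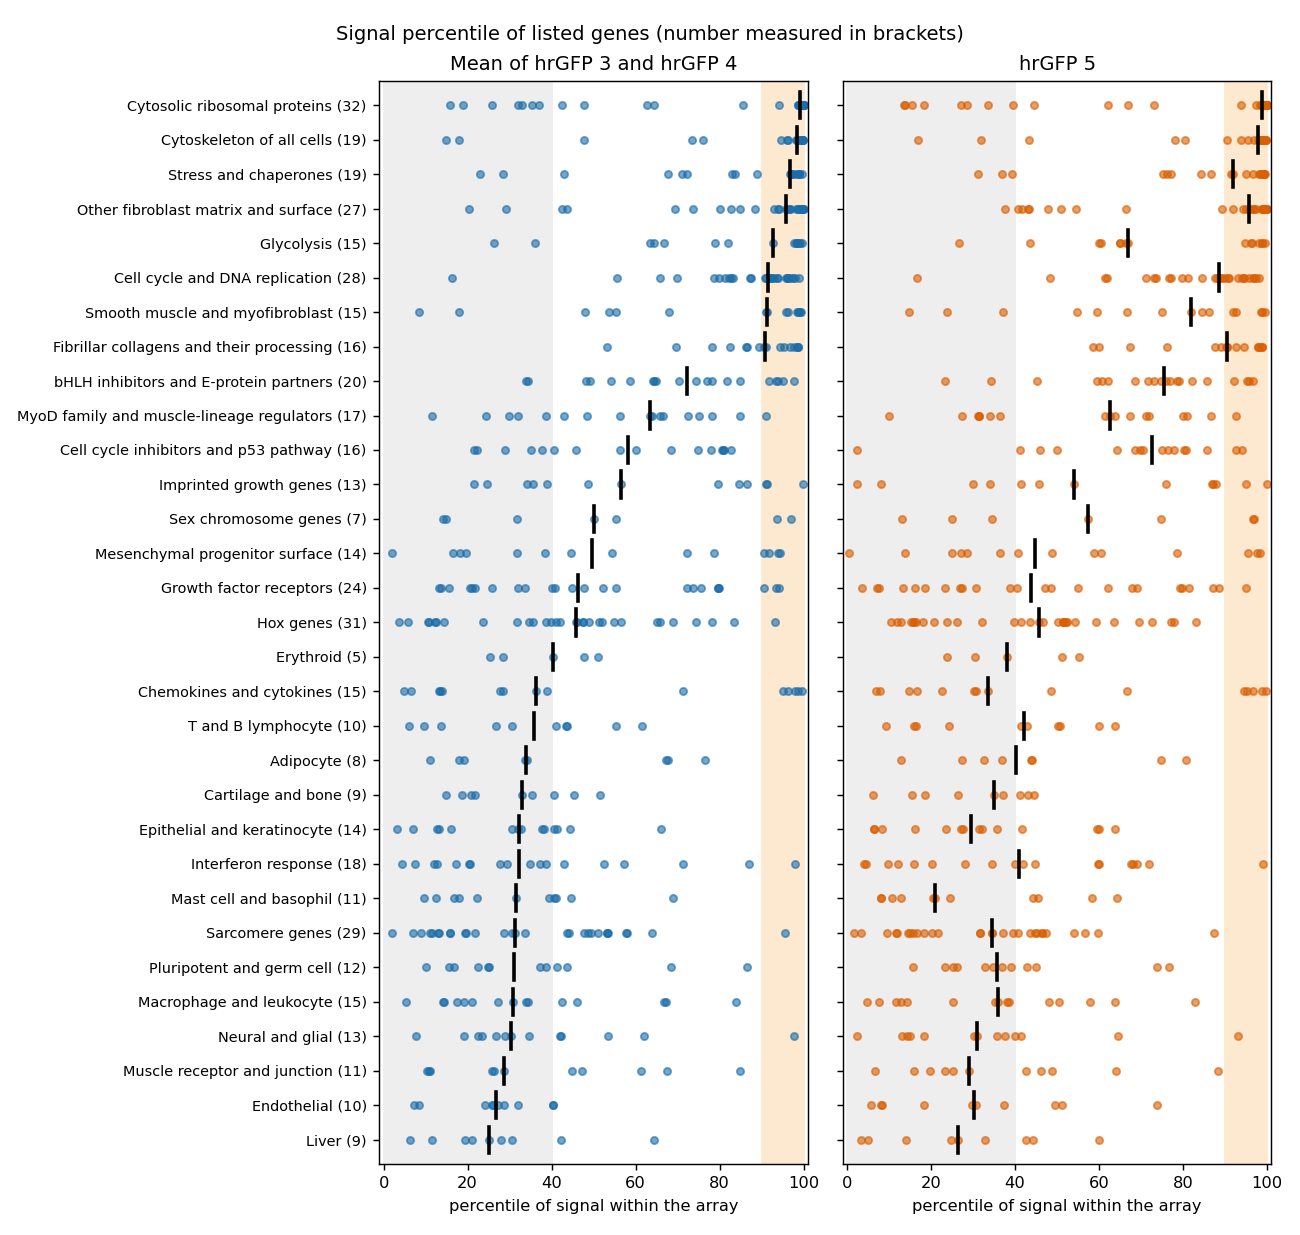
Percentile of the signal within the array for each measured gene of the 31 lists, as points, with the list median as a bar, for the mean of hrGFP 3 and hrGFP 4 and for hrGFP 5. Ribosomal, cytoskeletal and matrix lists have medians over 90, and the sarcomere list and the other lineages have medians near or under 40.

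Mesenchymal progenitor genes gave no single picture, with 3 of 14 high and 5 near background. Kitl, the ligand of Kit, had 388, 196 and 1040, and Cxcl12, a chemokine of stromal cells, 379, 185 and 1408. Prrx2, a homeobox gene of limb mesenchyme, had 305, 139 and 24.99, and its relative Prrx1 124, 60.3 and 42.0, both lower on hrGFP 5. Nt5e (CD73) and Meox2, a homeobox gene of the somites, were near background, at 32.0, 4.2 and 28.6 and at 2.4, 1.6 and 0.3.

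The cells had the transcripts of proliferation. Of 28 measured genes of the cell cycle and DNA replication 14 were high and 1 near background, with a median of 91.4, and 8 were high in a top 5%. Cdk4, the kinase of the G1 phase, had 1511, 885 and 818, and its cyclin partner Ccnd1 had 541, 401 and 904. Cdk1, the kinase of mitosis, had 1155, 335 and 985, and Mcm5, of the replicative helicase, 692, 391 and 257. Mcm6, another subunit of that helicase, was near background at 23.5, 9.2 and 16.7 on its single probe set. Among 16 inhibitors and p53 targets 0 were high and 4 near background. Cdkn1a (p21), Ccng1 and Mdm2 lay between 77.3 and 84.8 on hrGFP 3 and hrGFP 4, and Cdkn1c (p57) at 17.98, 25.3 and 2.3.

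Glycolysis had 8 of 15 genes high, with a median of 92.7 in hrGFP 3 and hrGFP 4 but 67.0 in hrGFP 5. Hk1, hexokinase, had 2477, 807 and 3713 and Ldha, lactate dehydrogenase, 1619, 745 and 1266. Pkm had 3434, 1928 and 572, and Aldoc, an aldolase of brain, was near background at 24.1, 28.2 and 43.6. Of 19 stress and chaperone genes 10 were high, among them Hsp90aa1 with 3785, 1624 and 3688 and Hspa8 with 1840, 677 and 2222, both cytosolic chaperones. Calr, a chaperone of the endoplasmic reticulum, was near background at 22.0, 24.0 and 31.1.

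Of 24 growth factor receptors 2 were high and 7 near background, with a median of 46.3, and 0 were high in a top 5%. Ddr2, a receptor kinase for fibrillar collagen, had 313, 258 and 265, and Fgfr1, which binds fibroblast growth factors, 283, 233 and 593. Igf1r, the receptor of insulin-like growth factors, had 274, 121 and 134. Tgfbr1 and Tgfbr2, the TGF-beta receptors, were near background, at 30.1, 11.0 and 3.5 and at 22.5, 8.8 and 13.3.

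Secreted signals were divided sharply. Of 15 chemokines and cytokines 5 were high and 9 near background, which left 1 between. Beside Ccl2, the high ones were Csf1, the growth factor of macrophages, with 1578, 561 and 816, Ccl7 with 752, 628 and 1902, Cxcl1 with 955, 200.2 and 530.2 and Cxcl5 with 846, 156 and 604. Cxcl1 and Cxcl5 attract neutrophils. Il1b, interleukin-1 beta, gave 1.38, 1.05 and 1.97, and Ccl5 1.73, 1.28 and 5.58. The interferon response was low, with 1 of 18 high and 10 near background. B2m, the light chain of class I histocompatibility molecules, was the high one with 869, 434 and 2098. Ifit1 and Usp18, both induced by interferon, lay at 6.1, 2.8 and 4.1 and at 8.9, 6.3 and 4.5.

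Hox genes, which give cells their position along the body axis, had 1 of 31 high and 9 near background, with a median of 45.8. Hoxd8 had 162, 76.6 and 171, and Hoxb6 95.7, 74.1 and 118, both in the middle. Hoxa4 was in the upper band on a single one of its 4 probe sets, with 252, 263 and 112.8, and its lowest gave 1.38, 0.901 and 0.333. Hoxa10, Hoxa11, Hoxd12 and Hoxd13, members from the distal end of their clusters, were near background, at or under percentile 18.2 on every hrGFP array. Of 13 imprinted genes, Gnas and Dlk1, an inhibitor of adipocyte formation, were high and 4 were near background, Mest among them at 24.3, 25.04 and 8.0. Among genes of the sex chromosomes, Eif2s3x and Ddx3x were high. Xist, the RNA of the inactive X, gave 6.25, 1.16 and 6.53, and the Y-linked Kdm5d and Uty gave 3.85, 2.55 and 3.00 and 13.4, 5.65 and 11.6, and all 3 were near background. Eif2s3y, on a probe set of shared probes, gave 38.04, 21.1 and 98.3.

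The hrGFP 5 array differed from the others in particular genes. On quantile-normalized log2(signal + 6.33), 376 of 8571 probe sets (4.39%) were over 4-fold from the mean of hrGFP 3 and hrGFP 4, 28 of them higher and 348 lower, while hrGFP 4 and hrGFP 3 were that far apart in 64. With 1 array against a pair this was not tested. Rab7, a small GTPase of late endosomes, was the lowest, with 4.00 on hrGFP 5 against 346 and 235 on hrGFP 3 and hrGFP 4. Get3, an ATPase that targets tail-anchored proteins, had 2.47 against 324 and 177, Klc1, a kinesin light chain, 5.71 against 422 and 205, and Actn1, alpha-actinin, 5.95 against 693 and 131. Rabac1, Mlf2, Dohh and Grem1, a secreted antagonist of bone morphogenetic proteins, had 1.32 to 10.5 against 108 to 449. These 8 had the lowest differences, from -5.19 to -4.73.

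The 8 largest differences the other way were higher on hrGFP 5. Dpt, the matrix protein dermatopontin, had 1600 on hrGFP 5 against 97.9 and 137 on hrGFP 3 and hrGFP 4, Ogn, the proteoglycan osteoglycin, 200.3 against 14.8 and 8.05, and Col3a1 322 against 23.4 and 26.3. Ephx1, an epoxide hydrolase, had 252 against 11.8 and 13.8, and Ccn3, a secreted signalling protein of the matrix, 70.1 against 3.39 and 4.29. Creg1, Tmem45a and Tbc1d24 complete the 8, with differences of 2.96, 2.50 and 2.51. The matrix lists did not move as a group with Dpt, Ogn and Col3a1: 3 of 16 collagen and processing genes were over 2-fold higher on hrGFP 5 and 4 lower, and of 26 other matrix and surface genes 3 were higher and 7 lower (26.9%, against 13.9% of all genes).

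The same probe sets differed in MyoD 5. Of the 376 probe sets 369 differed in the same direction between MyoD 5 and the mean of MyoD 3 and MyoD 4, 243 of them also over 4-fold, against 198 in the same direction and 0 over 4-fold for Myf5 5. Across all 8571 probe sets the differences correlated at a Pearson r of 0.827 with those of MyoD 5 and 0.101 with those of Myf5 5, given as a description, since probe sets share arrays and the 3 arrays share a batch. Col3a1 had 482 on MyoD 5 and 47.0 on Myf5 5, and Rab7 14.7 and 430. MyoD 5 and hrGFP 5 were the arrays with the 3' to 5' ratios given above, and the part of that in these differences was not tested. Of 16 lists with at least 10 genes, 11 had a larger share over 2-fold lower on hrGFP 5 than all genes (13.9% of 6292) and 4 a larger share over 2-fold higher (12.4%). By list, 7 of 15 inhibitors and p53 targets were over 2-fold higher on hrGFP 5 and 0 lower, with a median difference of 0.94, and the same median was 0.98 in MyoD 5. Cdkn2a, the tumour suppressor locus of p16 and p19Arf, was picked after its values were seen and had 76.3 on hrGFP 5 against 12.8 and 10.6 on hrGFP 3 and hrGFP 4. Of 13 smooth muscle genes 5 were over 2-fold lower (38.5%) and 0 higher, with medians of -0.09 for hrGFP 5 and -0.89 for MyoD 5. Of 15 glycolysis genes 5 were lower (33.3%), with medians of -0.69 for hrGFP 5 and -0.79 for MyoD 5, and of 27 cell cycle genes 7 (25.9%).

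**Figure D4:**
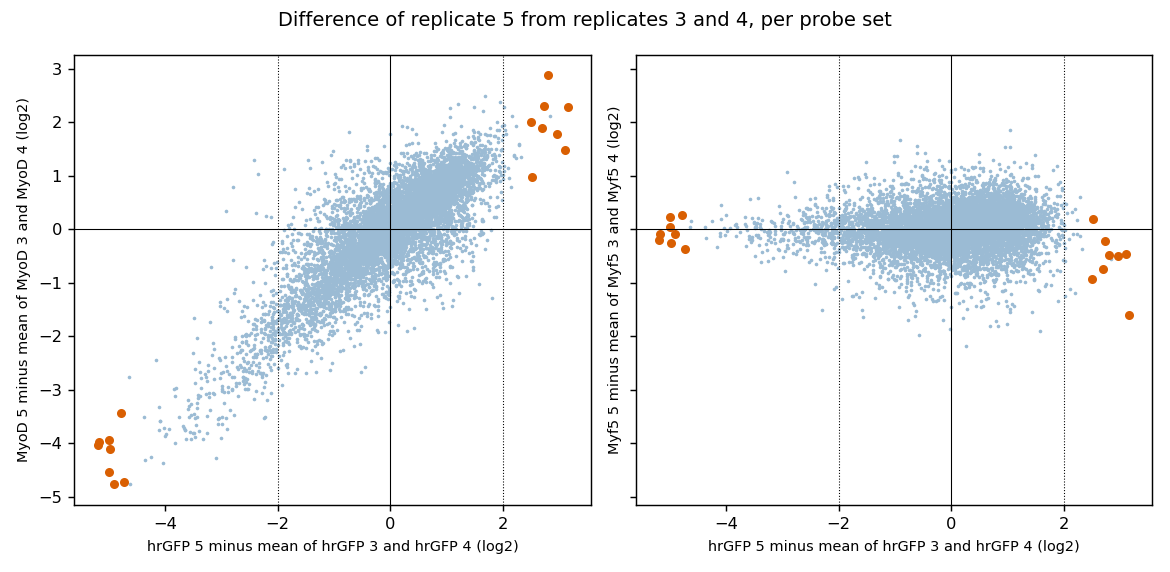
Difference of hrGFP 5 from the mean of hrGFP 3 and hrGFP 4 for each probe set (horizontal, log2), against the same difference for MyoD 5 (left) and Myf5 5 (right). Dotted lines mark 4-fold and the 16 named genes are in orange, which fall along the diagonal for MyoD 5 and near 0 for Myf5 5, Ephx1 at -1.60 being the farthest.

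Set against the mean of the MyoD and Myf5 groups, the hrGFP cells differed in few probe sets, and most of the named ones were muscle genes. This comparison shows which part of the starting profile was lower or higher than in cells of the same array batches that carry MyoD or Myf5. Of 8485 tested probe sets limma called 12 at an adjusted p under 0.05 (0.141%), all lower in hrGFP and 0 higher, with 289 at an unadjusted p under 0.05. In 125 probe sets (1.47%) the 3 hrGFP arrays did not overlap the 6 others, among them 10 of the 12 called. The called probe sets of Chrnb1, Tnnc1, Tnnt3, Tnnt1, Itga7, Actc1 and Mylpf were under the filter signal on all hrGFP arrays. They entered the test only through signal in other groups. With no filter 13 probe sets were called, all 12 among them. Differences are hrGFP minus the mean of MyoD and Myf5, in log2(signal + 6.33), ± the SE of the fit, with n = 3 arrays in each group. As most hrGFP signals of the called probe sets were near background, the pseudocount understates these differences.

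Acta1, the actin of skeletal muscle, had signals of 28.7, 2.19 and 3.39 in hrGFP cells, against 1338, 1126 and 721 in MyoD cells and 138, 21.2 and 172 in Myf5 cells. The groups do not overlap after normalization, although hrGFP 3 was above Myf5 4 in deposited signal. The difference was -4.38 ± 0.58 (adjusted p = 0.00621). Tnnc1, the troponin C of slow and cardiac muscle, had 12.3, 1.71 and 9.71 in hrGFP cells, against 661, 542 and 539 in MyoD cells and 39.8, 18.6 and 57.0 in Myf5 cells. All hrGFP arrays were lower, by -3.53 ± 0.38 (adjusted p = 0.00178). Tnnt3, the fast troponin T, had 3.43, 2.17 and 1.14 in hrGFP cells, against 191, 285 and 210.0 in MyoD cells and 14.0, 13.5 and 20.9 in Myf5 cells. Its groups did not overlap, with a difference of -3.09 ± 0.40 (adjusted p = 0.00621).

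Chrnb1, the receptor subunit, was called with the smallest adjusted p. It had 2.59, 1.86 and 6.54 in hrGFP cells, against 112, 87.5 and 218 in MyoD cells and 99.9, 38.8 and 109 in Myf5 cells, a difference of -3.39 ± 0.26 (adjusted p = 0.000113). Itga7, the laminin receptor of muscle cells, had 12.5, 6.28 and 9.56 in hrGFP cells, against 53.3, 54.8 and 48.9 in MyoD cells and 30.2, 27.0 and 56.1 in Myf5 cells, and differed by -1.68 ± 0.22 (adjusted p = 0.00621). The suffix of this Itga7 probe set marks shared probes. Mcpt8, the basophil protease, had 20.6, 9.22 and 20.8 in hrGFP cells, against 102, 100.6 and 75.1 in MyoD cells and 136, 73.5 and 179 in Myf5 cells, and differed by -2.28 ± 0.32 (adjusted p = 0.00764). In each of the 3 the hrGFP arrays were below all others. The second tested Itga7 probe set differed by -1.30 ± 0.42 without passing (adjusted p = 1). Mylpf, a fast myosin light chain, had 0.625, 0.505 and 0.950 in hrGFP cells, against 34.1, 25.9 and 33.4 in MyoD cells and 4.61, 1.84 and 7.55 in Myf5 cells, on a probe set of shared probes. It differed by -1.56 ± 0.25 (adjusted p = 0.0297), and the call was lost with the array batch as a block (adjusted p = 0.112) and with a replicate block (adjusted p = 0.155). Its other probe set had 25.8, 20.2 and 23.2 in hrGFP cells, against 140.1, 137 and 151 in MyoD cells and 34.1, 9.88 and 60.2 in Myf5 cells, and did not pass (adjusted p = 0.517).

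Actc1 and Tnnt1 were called although hrGFP and Myf5 arrays overlapped, and they are named outside the rule for that reason. Actc1 had 7.08, 0.490 and 0.490 in hrGFP cells, against 459, 345 and 287 in MyoD cells and 10.4, 9.15 and 5.79 in Myf5 cells. Tnnt1, the slow troponin T, had 4.24, 2.48 and 7.90 in hrGFP cells, against 76.8, 102 and 153 in MyoD cells and 6.42, 3.64 and 7.57 in Myf5 cells. Both calls rest on the MyoD arrays, and the other probe set of each did not pass (adjusted p = 1 for both), that of Tnnt1 with 41.6, 16.2 and 38.1 in hrGFP cells, against 43.0, 44.5 and 55.7 in MyoD cells and 35.4, 30.04 and 52.2 in Myf5 cells. The called differences were -3.15 ± 0.43 (adjusted p = 0.00741) and -1.75 ± 0.23 (adjusted p = 0.00621). The called probe sets of Actc1 and Tnnt1 have suffixes that mark shared or incomplete probes. The 3 further called probe sets match no single gene symbol. The brightest of them was in the top 10% of all 3 hrGFP arrays, with 312, 176 and 937. It had 2012, 2109 and 3674 in MyoD cells and 1941, 1369 and 2600 in Myf5 cells. Its difference was -2.49 ± 0.28 (adjusted p = 0.00184). The others had 2.88, 8.73 and 2.93, and 23.7, 12.3 and 26.8, in hrGFP cells.

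**Figure D5:**
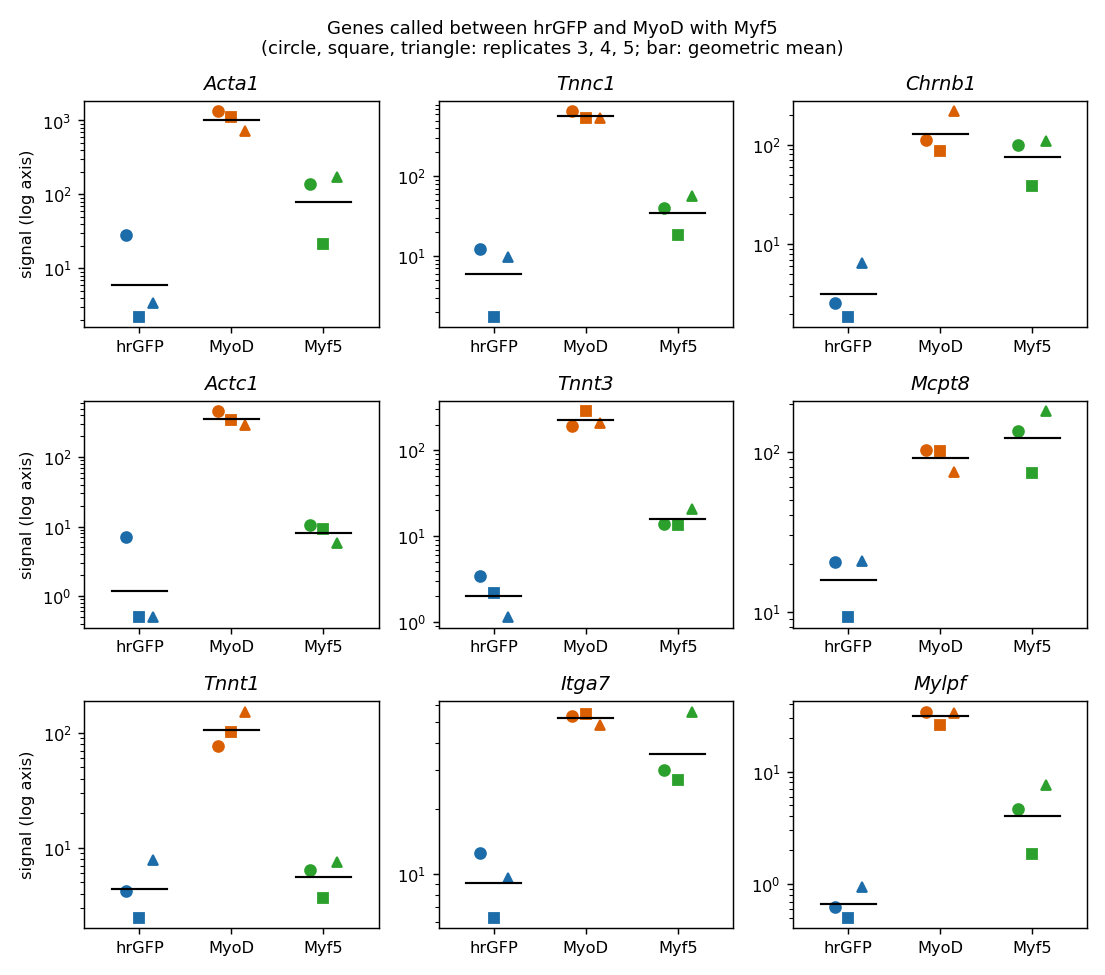
Deposited signal on a log axis of the 9 called genes in hrGFP, MyoD and Myf5 arrays, with replicates 3, 4 and 5 as circle, square and triangle and the geometric mean as a bar. The hrGFP points are the lowest in most panels and overlap the Myf5 points in Acta1, Actc1 and Tnnt1.

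Without hrGFP 4 only 4 of these calls passed, and without the 3'-biased hrGFP 5 and MyoD 5, an alternative chosen after the data were seen, 22 probe sets passed, 10 of the 12 among them. Chrnb1 and Tnnc1 passed under all 22 alternatives. Myog differed by -1.82 ± 0.40 without passing (adjusted p = 0.205), with 24.2, 33.9 and 53.1 in hrGFP cells, against 443, 409 and 165 in MyoD cells and 83.0, 46.1 and 111 in Myf5 cells. Without hrGFP 5 and MyoD 5 it differed by -2.21 (adjusted p = 0.0081).

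Most lists of the baseline gave no calls in this comparison. Of 29 sarcomere genes 20 were tested by their representative probe set and 3 passed, all lower, with a median difference of -0.95, against 6 of 6274 genes and a median of 0.0040. Among 9 receptor and junction genes 1 passed and the median was -0.61. A gene under the filter signal in all hrGFP arrays, such as Tnnt3 or Tnnc1, entered this test only through signal in other groups. Genes low in every group were left out. The filter thus favours negative differences in lists with many such genes, and its part in the sarcomere and receptor medians was not tested. Of 16 collagen and processing genes, 26 other matrix and surface genes, 13 smooth muscle genes, 19 inhibitors and partners of the MyoD family, 17 cytoskeleton and 26 ribosomal genes, 0 passed, with medians of 0.02, 0.01, -0.14, 0.02, -0.01 and -0.01. Of the 15 glycolysis genes 0 passed, 14 had a negative difference, and the median was -0.28. A p that misses the threshold does not show that these genes were alike between the groups.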

How the data were processed

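The deposited values are intensity signals, 1 per probe set and array, which the authors made, per the submitters' processing notes, with MAS5. The sources used here give no version, scaling or detection calls for it. The number of arrays limits precision. Information files gave 3 array batches: replicates 3 and 4 of hrGFP, MyoD and Myf5, their replicates 5, and the myogenin arrays.

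Percentiles were taken on the deposited signals (Python 3.11.15). For differences, 6.33 (the 25th percentile) was added before log2 and quantile normalization. Probe sets over 15.0 (the 40th percentile) in at least 3 of 12 arrays were fitted with limma 3.58.1 (R 4.3.3), 1 mean per group and 8 residual degrees of freedom, with Benjamini-Hochberg adjustment. The p-values measure the spread between these arrays, which may be technical. The fit was checked on simulated data.

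Of the probe sets, 10833 had 1 symbol in the platform table, 396 several and 1193 were not listed; only the first were named. Suffixes _f, _s, _i and _r mark shared or incomplete probes. Of 608 listed genes 499 were measured. Named genes are the 25 of highest mean percentile, members among the highest 6 and lowest 4 of a list, called probe sets without overlap, the 8 largest differences of hrGFP 5 each way, and the MyoD family; others were chosen after their values were seen. Members, lists and tests were chosen with earlier results of these data known. Promoters are the first listed per gene.

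Alternatives covered bands, normalization, pseudocount, filter, replicate block, batch block and each array left out. Deviations of same-numbered samples correlated at 0.107 to 0.827 for hrGFP with MyoD or Myf5. For MyoD with Myf5 they correlated at -0.00706 in replicate 3 and at 0.108 in replicates 4 and 5. No block was used in the main fit. The blocked value is given where a named call was lost, and probe sets called only with a block are counted but not named.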

Additional observations from a re-analysis of the deposited data

How the results depend on the processing

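With a top 5% in place of 10%, 520 probe sets were high in both hrGFP 3 and hrGFP 4 in place of 1046. With a top 5% and a lowest 30%, 103 list members were near background in place of 155. The count of probe sets over 4-fold from hrGFP 5 was 570 with trimmed mean scaling and 737 with a pseudocount of 1, against 376. The other alternatives for these totals kept them within 1.5 times, but 51 of 186 counts of single lists moved by more, 23 of them with the top 5% and lowest 30%, 18 with the probe set of lowest mean and 10 with all 3 arrays. Cell cycle genes high became 8 of 28 with either of the first 2, mesenchymal genes 0 with a top 5%. The 12 calls against MyoD and Myf5 became 4 to 16 when each array was left out, lowest without hrGFP 4, and 22 without hrGFP 5 and MyoD 5 (10 shared). With the replicate block 14 were called (11 shared) and with the batch as a block 18 (11 shared). Without replicate 5 of hrGFP, MyoD and Myf5, but with the myogenin arrays kept in the fit, 18 were called (10 shared). Without hrGFP 4 the calls of Acta1, Tnnt3, Itga7, Mcpt8, Actc1 and Tnnt1 were lost, with adjusted p up to 0.085, Mcpt8 also without hrGFP 3 and Tnnt1 also against the mean of all 3 factors. Mylpf passed in 8 of 17 and failed with either block and with hrGFP 3, hrGFP 4 or hrGFP 5 left out. The cause was not tested. Differences near 0 that never passed changed sign. That of the Myf5 probe set ran from -0.15 to 0.50 when each array was left out and was -0.0319 without hrGFP 5 and MyoD 5. That of Myod1 ran from -0.11 to 0.13 when each array was left out. It was -0.0308 without replicate 5 of hrGFP, MyoD and Myf5 and -0.0167 with trimmed mean scaling. With no normalization it was -0.0688, and against the mean of all 3 factors -0.20. Signals at the level of the non-mouse controls limit any order within the lowest 40%.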

Other observations

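Several genes outside the lists were among the 60 brightest of hrGFP cells, and were chosen after their values were seen. Hmga2, a chromatin protein of embryonic and transformed cells, gave 2347, 1350.3 and 3765 on hrGFP 3, hrGFP 4 and hrGFP 5. Crabp1, which binds retinoic acid, gave 2137, 1400.05 and 876. Cck, the precursor of the hormone cholecystokinin, gave 2100.4, 1209.7 and 1424. Emp1, an epithelial membrane protein, gave 2681, 1574 and 4553. All 4 were in the top 10% of every hrGFP array.

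Probe sets of the same gene often ranked far apart. Of 2073 genes with several probe sets, 410 had probe sets over 50 percentile points apart in the mean of hrGFP 3 and hrGFP 4, the median distance was 23.8 points, and 115 genes were high on one probe set and near background on another. Cd44, the hyaluronan receptor, gave 687, 275 and 28.3 on its best probe set and 3.12, 3.46 and 1.16 on another. Timp1, the inhibitor of metalloproteinases, gave 1916, 659 and 974 on one and 0.822, 2.22 and 9.86 on the other. Rpl32, Calr, Flna and Vim, all low, had 1 probe set each and so no second reading.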
